A study of Mus musculus with 11 samples.

Results

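The 36 genes described here were taken by symbol from a fixed list of homeostatic, shared myeloid and disease-associated microglial genes, out of 30681 genes in the count table. All 36 were found. They fall into 6 roles: 10 homeostatic receptors and surface proteins, 3 transcription factors, 9 pan-myeloid genes, 5 genes of the TREM2-TYROBP pair and the C1q chains, 2 receptors of the TAM family and 7 disease-associated genes. Microglia are the resident macrophages of the brain. In the healthy adult they carry a set of homeostatic receptors, among them the ADP receptor P2RY12 and the fractalkine receptor CX3CR1, with which they survey the tissue, and their survival depends on signals through CSF1R. Near damaged cells or amyloid a fraction of them lowers these receptors and raises phagocytic, lysosomal and lipid-handling genes, a state called disease-associated, in which signalling through TREM2 and its adaptor TYROBP takes part.

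Polyadenylated RNA was sequenced from mouse hippocampus, 1 hippocampus per library, at 6 months of age. The libraries comprised 6 that the labels assign to a conditional knockout (cKO) of the doublecortin-like kinase gene Dclk3 and 5 assigned to wild type (WT). The line that carries the recombinase, the cells in which it acts, the part of Dclk3 deleted and the mouse strain are not stated in what was used here, and the labels name no treatment. The labels do not state that different libraries came from different mice, so the p-values below measure only the spread between these samples.

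Totals ran from 24001828 to 35674490 counts per library, mitochondrial transcripts took 4.47% to 6.79% of the counts, and 22558 to 23787 genes had at least 1 count. Values are counts scaled to a common library size by TMM factors, in the usual unit CPM. The targeted gene Dclk3 averaged 22.4 ± 3.31 CPM in WT (SD, n = 5) and 20.1 ± 3.44 CPM in the other group (SD, n = 6), and its difference did not pass the test (log2 fold change -0.15 ± 0.12 SE, adjusted p = 0.727 in edgeR), so the group is called "labelled cKO" throughout. By Xist and 4 Y-linked genes the 6 libraries labelled cKO and WT replicates 2 and 5 were male, and WT replicates 1, 3 and 4 were female. Hippocampal neuron markers were present in every library (summed level of 9 genes 1209.7 to 1395 CPM). Replicate 2 labelled cKO stood apart from the other 10 libraries in many of the microglial genes, and values without it are given beside the results it moves most.

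The promoters of 5 members, taken as the 300 bases around the start site (250 before and 50 after), hold the 8 letters GAGGAAGT or their reverse complement ACTTCCTC, a form of the purine-rich site that PU.1 binds. PU.1 is the protein of the member Spi1 and a main regulator of myeloid genes, and the sequences are shown because the letters recur in members of 3 different roles and the factor is itself a member. RefSeq promoters on GRCm38.p6 were given for 28 of the 36 members (34 promoters), and 5 of these 34 (14.7%) held the letters on either strand, against 3.20% of all 32851 promoters. The shorter GAGGAA, which lies inside the longer motif and so counts the same 5 again, was in 18 of 34 (52.9%), against 28.3% of all. A match describes the sequence and is not evidence that the factor binds there. Each window of 30 bases is written 5′ to 3′ on the strand of the gene, with the motif in capitals. Gpr34, Csf1r, Tmem119, Selplg, Spi1, Tyrobp, C1qa and Lpl had no entry.
Ctss, chr3:95526773-95526802, plus strand: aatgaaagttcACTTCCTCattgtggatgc
Cd53, chr3:106790125-106790154, minus strand: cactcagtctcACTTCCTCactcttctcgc
Inpp5d, chr1:87620281-87620310, plus strand: gtttctataatGAGGAAGTtctgtgcagct
C1qc, chr4:136893091-136893120, minus strand: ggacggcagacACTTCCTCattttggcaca
Spp1, chr5:104434987-104435016, plus strand: caaaaccagagGAGGAAGTgtaggagcagg

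Counting the start site as position 0, the motif began at -2 in Ctss, at 6 in Cd53 and at -20 in Inpp5d, so that in these 3 genes it lay within 20 bases of the start. It began at -195 in C1qc and at -113 in Spp1. The 5 genes differed in sign between the groups: Cd53, Ctss, C1qc and Inpp5d had positive log2 fold changes and Spp1 a negative one, with the values given under their roles below.

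Several members are neighbours on the genome (GENCODE M21, mm10). The 3 genes of C1q, C1qb, C1qc and C1qa, follow each other on chromosome 4 between positions 136880129 and 136898803. P2ry13 and P2ry12 are adjacent on chromosome 3 and lie within or across Med12l, Itgam and Itgax are adjacent on chromosome 7, and Tmem119 and Selplg on chromosome 5. Whether the counting used the strand of a read is not stated in what was used here. Csf1r shares 873 exon bases with Hmgxb3 on the opposite strand (1253 to 1969 counts per library), so part of its count could belong to that gene. Itgam shares 3450 of its 5024 exon bases with Gm49368 on its own strand, which had 0 counts in every library. How reads that fit both genes were counted is not stated, so the level of Itgam could be understated.

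The levels of the members spanned nearly 3 orders of magnitude. Per kilobase of exon, and averaged over the 11 libraries, Ctss, which encodes the lysosomal protease cathepsin S, was the most abundant member at 114 CPM, followed by C1qa at 90.8, C1qb at 85.6, Tyrobp at 54.5 and C1qc at 43.5. The C1q chains form the molecule that starts the classical complement cascade. Of the homeostatic receptors Csf1r was highest at 26.6 CPM per kilobase, then P2ry12 at 21.8 and Cx3cr1 at 20.4. The lowest were 3 disease-associated genes and Ptprc: Cst7 at 0.823, Clec7a at 0.715, Ptprc at 0.321 and Itgax at 0.154 CPM per kilobase. The length used joins all annotated exons of a gene, which can exceed the length of its main transcript. For Ptprc it is 18313 bases, and Ptprc ranks below Cst7 and Clec7a by this measure although its mean CPM is higher. Between every member and the next one down in this order the ranges over the 11 libraries overlapped, so neighbours in the order are not told apart by their spread. All 36 members passed the filter on low counts; the smallest counts of a member in a library were 3 for Cst7, 6 for Itgax and 24 for Clec7a.

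**Figure D1:**
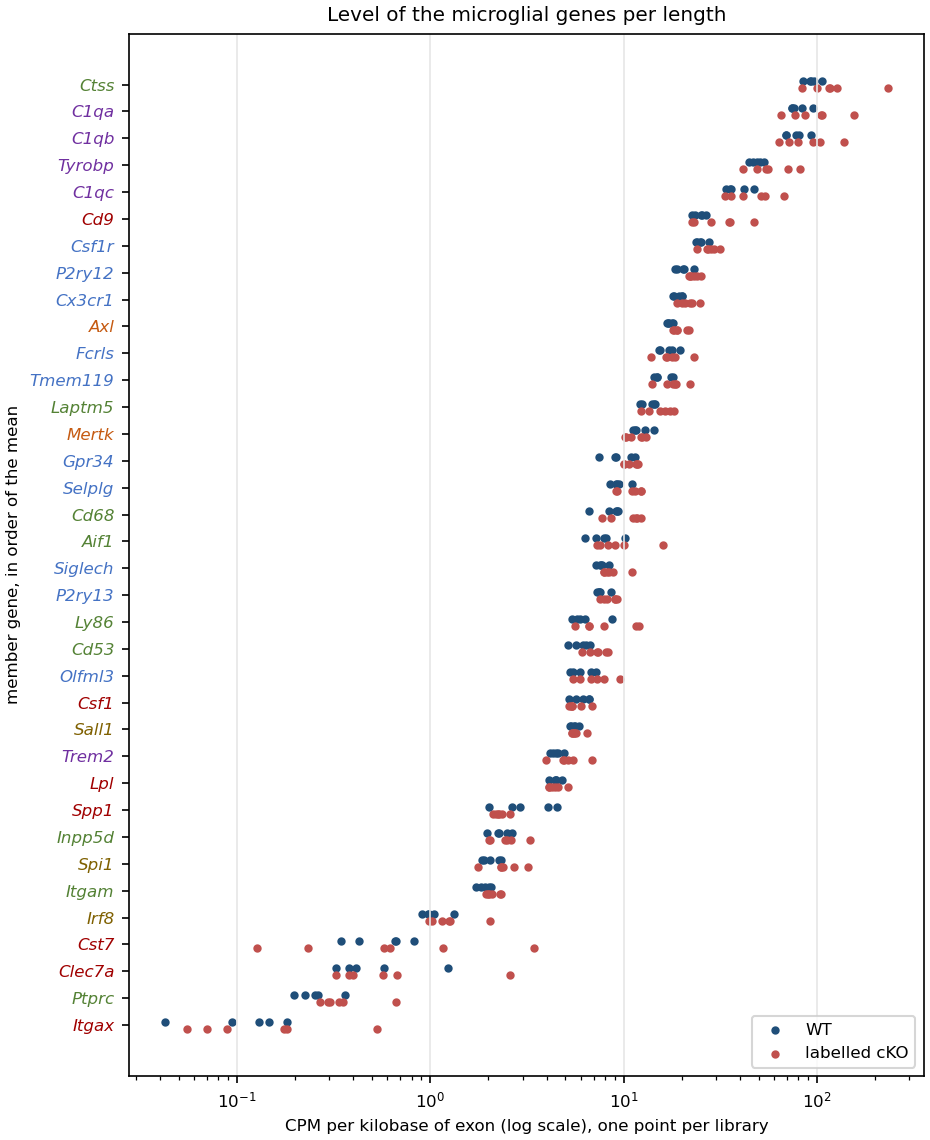
Level of each member per kilobase of exon (all annotated exons joined) on a log axis, 1 point per library, with genes in order of their mean and gene names coloured by role. Ctss and the C1q genes are at the top, from 33.6 CPM per kilobase in the lowest C1qc library upwards, and Itgax is at the bottom, where the single high point of Itgax, Ptprc, Clec7a and Cst7 is replicate 2 labelled cKO.

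The comparison of the groups asks whether microglial genes differed where Dclk3 was targeted. None of the 36 members passed the test across all 16587 genes, and none of the other genes did either (quasi-likelihood test of edgeR, Benjamini-Hochberg adjusted, 0 genes or 0.0% called; adjusted p of the members 0.406 to 0.994). The members leaned upwards all the same: 32 of 36 (88.9%) had a positive log2 fold change, against 50.0% of all genes tested, and their median was 0.21, from -0.49 for Spp1 to 0.84 for Cst7. At an unadjusted p under 0.05 there were 10 members higher in the libraries labelled cKO (27.8%, against 3.84% of all genes): P2ry12, P2ry13, Cx3cr1, Csf1r, Siglech, Selplg, Cd53, Laptm5, Cd68 and Axl. Spp1 was the single member lower at that level (2.78%, against 5.35% of all genes). Over all genes 637 were higher and 887 lower at an unadjusted p under 0.05 in edgeR. DESeq2 called 58 of 15452 genes (0.375%), none of them a member.

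No member separated the groups completely. The count of members with all 6 libraries labelled cKO above every WT library was 0 (0.404% of all genes), and the count with all 6 below was also 0 (0.512%). The summed level of the 36 genes was 1389.7 ± 74.8 CPM in WT (SD, n = 5) and 1610.4 ± 268 CPM in the group labelled cKO (SD, n = 6). It ran from 1311 CPM in replicate 1 labelled cKO, below every WT library, to 2075 CPM in replicate 2. In bulk tissue a higher level of microglial RNA cannot be told apart between more cells and more RNA per cell.

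Left out, replicate 2 labelled cKO took part of this upward lean with it. This library was singled out after its high values of these genes were seen, so a smaller lean without it follows from the choice. In the remaining 10 libraries 28 of 36 members had a positive log2 fold change, the median was 0.13, and 4 were higher at an unadjusted p under 0.05 (3.27% of all genes): P2ry12, Cx3cr1, Cd53 and Axl. Without replicate 1 labelled cKO, which had the lowest value of 9 members, 19 were higher at that level (5.41% of all genes) and the median was 0.28. With replicates 2 and 6 labelled cKO and WT replicate 1 left out together, a choice made after seeing the data, 30 members had a positive log2 fold change and 6 were higher at an unadjusted p under 0.05 (3.25% of all genes). Among the 8 male libraries 34 were positive with a median of 0.28. There 5 were higher at that level (2.0% of all genes): Cd53, Csf1r, Tmem119, Cd68 and Cx3cr1. P2ry12, P2ry13, Siglech, Selplg, Laptm5 and Axl, higher at that level with all 11 libraries, were not among them. The female libraries were all WT, so no value could be had within them.

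**Figure D2:**
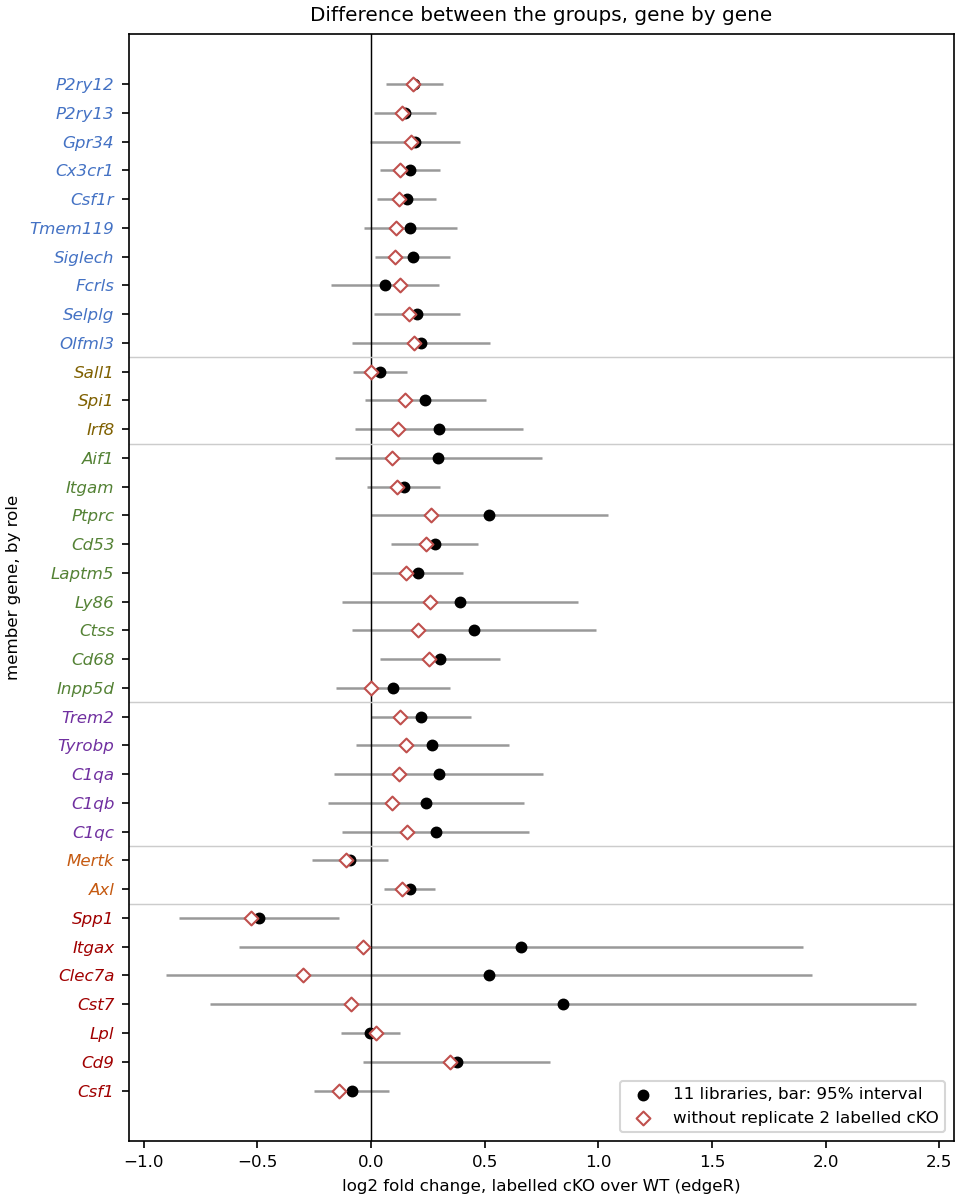
Log2 fold change of each member, libraries labelled cKO over WT, from all 11 libraries (black points with 95% intervals) and without replicate 2 labelled cKO (open diamonds), with gene names coloured by role. Most points lie right of 0, the 10 homeostatic receptors and surface proteins stay right of 0 when the library is left out, and Itgax, Clec7a and Cst7 pass from 0.66, 0.52 and 0.84 to -0.03, -0.30 and -0.09.

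The homeostatic receptors and surface proteins were slightly higher on average in the libraries labelled cKO. All 10 had a positive log2 fold change, with a median of 0.18 and a range of 0.06 to 0.22, and 6 of the 10 were higher at an unadjusted p under 0.05 (3.84% of all genes). Their summed level was 502 to 624 CPM in the libraries labelled cKO and 484 to 541 CPM in WT. Without replicate 2 the median was 0.13 and 2 of the 10, P2ry12 and Cx3cr1, were higher at that level (3.27% of all genes).

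P2ry12, the ADP receptor that steers microglial processes towards injured cells, was at 55.5, 57.9 and 64.2 CPM (lowest, median and highest of the 6 libraries labelled cKO), and at 46.7, 58.7, 52.4, 51.5 and 48.0 CPM in WT replicates 1 to 5. WT replicate 2 lay inside the range of the libraries labelled cKO, and the other 4 WT libraries lay below all of them. P2ry12 had a log2 fold change of 0.19 ± 0.06 (SE, unadjusted p = 0.00468, adjusted p = 0.406 in edgeR). It was 0.18 without replicate 2 labelled cKO and 0.14 in the 8 male libraries (there unadjusted p = 0.11, adjusted p = 0.869 in edgeR).

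Cx3cr1, the receptor of the neuronal chemokine fractalkine, was at 85.3, 96.3 and 113 CPM in the libraries labelled cKO and at 90.6, 82.4, 80.8, 90.1 and 87.0 CPM in WT. Replicates 1 and 6 labelled cKO fell inside the WT range and the other 4 lay above it. Its log2 fold change was 0.17 ± 0.06 (SE, unadjusted p = 0.0131, adjusted p = 0.436 in edgeR), or 0.13 without replicate 2. Csf1r, the receptor of CSF1 and IL-34, was at 138, 161 and 181 CPM in the libraries labelled cKO, and at 145, 137, 138, 159.9 and 143 CPM in WT. The groups overlapped: WT replicate 4 exceeded 3 of the 6 libraries labelled cKO, and replicate 1 labelled cKO lay below WT replicates 1, 4 and 5. For Csf1r the log2 fold change was 0.16 ± 0.06 (SE, unadjusted p = 0.0215, adjusted p = 0.476 in edgeR), or 0.12 without replicate 2.

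The other members of this role followed with small differences. P2ry13, another ADP receptor, had a log2 fold change of 0.15 ± 0.07 (SE), Siglech, a sialic acid-binding lectin, of 0.18 ± 0.08 (SE), and Selplg, the P-selectin ligand, of 0.20 ± 0.09 (SE). Gpr34, a receptor for lysophosphatidylserine, had one of 0.19 ± 0.09 (SE) and Tmem119, a surface protein used as a microglial marker, of 0.17 ± 0.10 (SE). Fcrls, a scavenger receptor, and Olfml3, a secreted protein, had their highest values in replicate 6 labelled cKO, at 54.2 and 58.9 CPM, and log2 fold changes of 0.06 ± 0.11 (SE) and 0.22 ± 0.14 (SE). Without replicate 2 labelled cKO the log2 fold changes were 0.11 for Siglech, 0.11 for Tmem119 and 0.13 for Fcrls. Fcrls was the single member with its lowest value in replicate 2 labelled cKO (32.3 CPM).

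Of the transcription factors, Spi1 and Irf8 were higher on average in the libraries labelled cKO and Sall1 was nearly level, and none of the 3 reached an unadjusted p under 0.05. Spi1, the gene of PU.1, was at 4.79, 6.32 and 8.61 CPM in the libraries labelled cKO and at 6.14, 5.14, 5.49, 6.28 and 4.96 CPM in WT, with a log2 fold change of 0.24 ± 0.13 (SE, unadjusted p = 0.0748, adjusted p = 0.581 in edgeR). Irf8, which encodes a partner of PU.1, was at 6.96, 8.46 and 14.3 CPM in the libraries labelled cKO and at 9.35, 6.36, 6.89, 6.91 and 7.39 CPM in WT, with a log2 fold change of 0.30 ± 0.17 (SE, unadjusted p = 0.104, adjusted p = 0.616 in edgeR). For both genes the top value was that of replicate 2, and without it the log2 fold changes were 0.15 and 0.12.

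Sall1, a zinc-finger factor that maintains microglial identity, was at 28.4, 29.1 and 34.1 CPM in the libraries labelled cKO and at 29.2, 31.0, 27.8, 29.3 and 28.2 CPM in WT. The groups overlapped almost fully apart from replicate 2 labelled cKO. The log2 fold change of Sall1 was 0.04 ± 0.06 (SE, unadjusted p = 0.488, adjusted p = 0.876 in edgeR), and it was at 0 to 2 decimals without that library.

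The 9 pan-myeloid genes, which microglia share with other macrophages, all had positive log2 fold changes, with a median of 0.30 and a range of 0.10 to 0.52. Without replicate 2 labelled cKO the median was 0.20. Cd53, Laptm5 and Cd68 were the 3 higher at an unadjusted p under 0.05. Cd53, a tetraspanin of leukocytes, was at 10.6, 12.8 and 14.5 CPM in the libraries labelled cKO and at 11.7, 10.8, 11.1, 9.92 and 9.02 CPM in WT. Replicates 1 and 5 labelled cKO lay within the WT range and the other 4 above it. The log2 fold change of Cd53 was 0.28 ± 0.09 (SE, unadjusted p = 0.00675, adjusted p = 0.416 in edgeR), and it was 0.24 without replicate 2 and 0.37 in the male libraries.

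Cd68, a glycoprotein of late endosomes and lysosomes, was at 9.67, 14.4 and 15.4 CPM in the libraries labelled cKO and at 11.6, 8.30, 10.6, 11.7 and 11.4 CPM in WT. The libraries labelled cKO split into 2 low ones, replicates 1 and 5, inside the WT range, and 4 above every WT library. Its log2 fold change was 0.30 ± 0.12 (SE, unadjusted p = 0.0275, adjusted p = 0.494 in edgeR). Ctss was at 114, 158 and 315 CPM in the libraries labelled cKO and at 145, 131, 124, 126 and 116 CPM in WT, with replicate 2 far above the rest. For Ctss the log2 fold change was 0.45 ± 0.24 (SE, unadjusted p = 0.0898, adjusted p = 0.601 in edgeR), and it was 0.20 without that library.

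Laptm5, a lysosomal membrane protein, had a log2 fold change of 0.20 ± 0.09 (SE). Aif1, the gene of the microglial stain IBA1, had one of 0.30 ± 0.21 (SE), and Itgam, the CD11b integrin chain, one of 0.14 ± 0.08 (SE). Ptprc, the leukocyte phosphatase CD45, had a log2 fold change of 0.52 ± 0.24 (SE) at a level of only 3.61 to 12.2 CPM. Ly86, which encodes the MD-1 partner of the receptor RP105, had its highest values in replicates 2 and 6 labelled cKO (43.8 and 42.3 CPM) and a log2 fold change of 0.39 ± 0.23 (SE). Inpp5d, the inositol phosphatase SHIP1, had one of 0.10 ± 0.12 (SE). Without replicate 2 the log2 fold changes were 0.09 for Aif1, 0.26 for Ptprc, 0.26 for Ly86, 0.15 for Laptm5 and 0 to 2 decimals for Inpp5d.

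**Figure D3:**
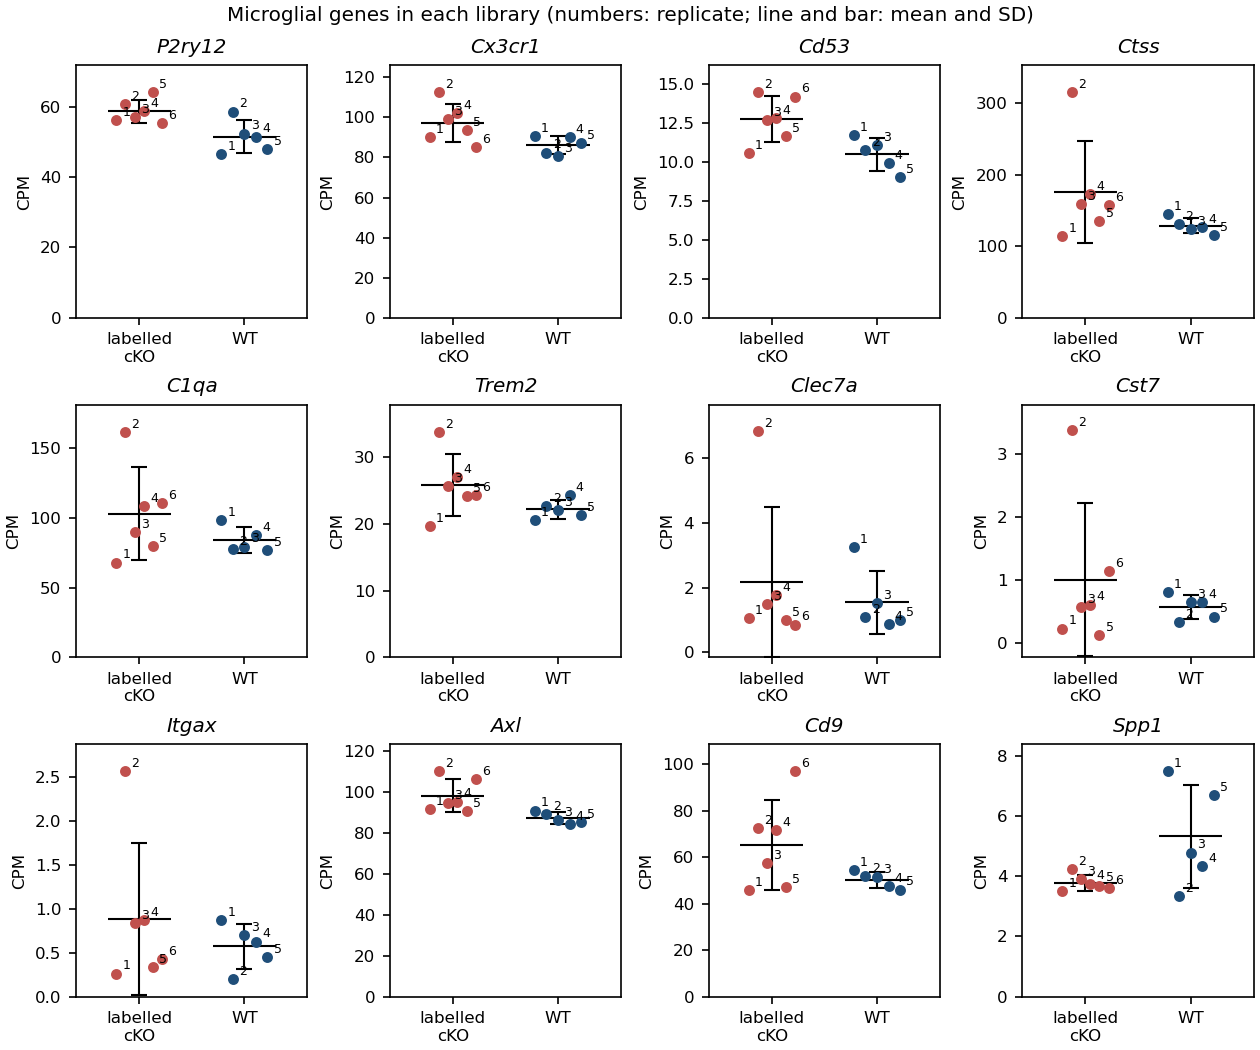
CPM of 12 members in each library, with the replicate number beside each point and the mean and SD of each group as a line and bar. Replicate 2 labelled cKO is the top point for Ctss, C1qa, Trem2, Clec7a, Cst7 and Itgax, replicate 6 is the top point for Cd9 at 96.9 CPM, and for Spp1 the libraries labelled cKO cluster between 3.50 and 4.25 CPM while WT spreads from 3.33 to 7.48.

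The TREM2-TYROBP pair and the C1q genes all had positive log2 fold changes, from 0.22 to 0.30 with a median of 0.27, and none reached an unadjusted p under 0.05. Without replicate 2 labelled cKO they ran from 0.09 to 0.16 with a median of 0.13. Trem2, the lipid-binding receptor, was at 19.7, 25.0 and 33.8 CPM in the libraries labelled cKO and at 20.6, 22.6, 22.1, 24.3 and 21.3 CPM in WT, with a log2 fold change of 0.22 ± 0.10 (SE, unadjusted p = 0.0512, adjusted p = 0.545 in edgeR). Tyrobp, the adaptor through which TREM2 signals, was at 27.7, 36.9 and 54.7 CPM in the libraries labelled cKO and at 35.5, 32.8, 34.0, 31.3 and 29.8 CPM in WT, with a log2 fold change of 0.27 ± 0.15 (SE, unadjusted p = 0.106, adjusted p = 0.619 in edgeR). Without replicate 2 the values were 0.13 for Trem2 and 0.15 for Tyrobp. Both ranges of the libraries labelled cKO enclosed the WT range, since replicate 1 was the lowest of all 11 libraries and replicate 2 the highest.

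C1qa was at 68.0, 99.3 and 162 CPM in the libraries labelled cKO and at 98.7, 77.6, 79.5, 87.4 and 77.0 CPM in WT. The same 2 libraries formed the extremes, and the log2 fold change was 0.30 ± 0.20 (SE, unadjusted p = 0.179, adjusted p = 0.701 in edgeR), or 0.12 without replicate 2. C1qb and C1qc had log2 fold changes of 0.24 ± 0.19 (SE) and 0.28 ± 0.18 (SE), or 0.09 and 0.16 without that library. The 3 chains kept nearly fixed proportions from library to library: C1qa ran over a 2.38-fold range, while the ratio of its CPM to that of C1qb stayed between 0.941 and 1.08 and that to C1qc between 1.05 and 1.24.

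The TAM receptors bind dying cells through the bridging proteins GAS6 and PROS1, and both are also transcribed by cells other than microglia. Axl was at 90.9, 95.1 and 110.2 CPM in the libraries labelled cKO and at 91.0, 89.5, 86.4, 84.5 and 85.5 CPM in WT. In all, 5 of the 6 libraries labelled cKO lay above every WT library, and replicate 5 fell just under WT replicate 1. The log2 fold change was 0.17 ± 0.05 (SE, unadjusted p = 0.00582, adjusted p = 0.416 in edgeR). It was 0.14 without replicate 2 and 0.17 in the male libraries (there unadjusted p = 0.0576, adjusted p = 0.854 in edgeR). Mertk was at 43.8, 50.1 and 56.9 CPM in the libraries labelled cKO and at 48.4, 55.9, 50.4, 49.4 and 62.0 CPM in WT, with wide overlap and a log2 fold change of -0.09 ± 0.08 (SE, unadjusted p = 0.256, adjusted p = 0.756 in edgeR). In the 8 male libraries the log2 fold change of Mertk was -0.24 (unadjusted p = 0.0275, adjusted p = 0.854 in edgeR).

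Disease-associated genes had no common direction. Of the 7, 4 had a positive log2 fold change and 3 a negative one, the median was 0.38 with all 11 libraries and -0.09 without replicate 2 labelled cKO, and none was higher at an unadjusted p under 0.05. Cd9, a tetraspanin that other glia also express, was at 46.0, 64.6 and 96.9 CPM in the libraries labelled cKO and at 54.4, 51.7, 51.6, 47.7 and 46.1 CPM in WT. Replicate 5 labelled cKO lay within the WT range and replicate 1 just under it, and the other 4 lay above it, led by replicate 6. Its log2 fold change was 0.38 ± 0.18 (SE, unadjusted p = 0.0679, adjusted p = 0.572 in edgeR).

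Spp1, which encodes osteopontin, was the member that differed most in the other direction. It was at 3.50, 3.72 and 4.25 CPM in the libraries labelled cKO and at 7.48, 3.33, 4.78, 4.35 and 6.68 CPM in WT. WT replicates 1 and 5, a female and a male library, held the high values, 4 of the 5 WT libraries lay above every library labelled cKO, and WT replicate 2 lay below all of them. The log2 fold change of Spp1 was -0.49 ± 0.17 (SE, unadjusted p = 0.00926, adjusted p = 0.423 in edgeR), and it was -0.53 without replicate 2 labelled cKO, -0.40 in the male libraries and -0.37 with the 3 libraries left out together. Spp1 is also made by other cells of the brain and its borders, and 9 of 10 tested markers of border-associated macrophages, listed below, had negative log2 fold changes as well. Their part in the Spp1 result was not tested.

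Itgax, Clec7a and Cst7, which encode the CD11c integrin chain, the lectin receptor dectin-1 and the protease inhibitor cystatin F, were low in nearly all libraries. They are singled out here after their values were seen. Itgax was at 0.264, 0.633 and 2.56 CPM in the libraries labelled cKO and at 0.873, 0.204, 0.704, 0.625 and 0.454 CPM in WT. Clec7a was at 0.857, 1.28 and 6.83 CPM in the libraries labelled cKO and at 3.24, 1.09, 1.52, 0.864 and 1.005 CPM in WT. Cst7 was at 0.126, 0.59 and 3.38 CPM in the libraries labelled cKO and at 0.81, 0.34, 0.645, 0.655 and 0.422 CPM in WT. For each the top value was that of replicate 2 labelled cKO, with the other 5 libraries of the group overlapping WT. Their log2 fold changes with all libraries were 0.66 ± 0.57 (SE), 0.52 ± 0.64 (SE) and 0.84 ± 0.70 (SE). Lpl, the lipoprotein lipase, and Csf1, the ligand of CSF1R, are expressed widely in the hippocampus, and had log2 fold changes of -0.00312 ± 0.06 (SE) and -0.08 ± 0.08 (SE), which for Lpl is 0 within its error.

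Replicate 2 labelled cKO held the highest value of 27 of the 36 members (75.0%), where it was highest for 10.0% of all genes tested. In 12 members (33.3%) it was at least 1.5 times the median of the other 10 libraries, against 3.98% of all genes. The excess differed between genes of a role. Clec7a was 6.37 times that median, Cst7 5.72 times and Itgax 4.74 times, followed by Ctss and Ptprc at 2.36 each, Aif1 at 2.00, Irf8 at 1.96, C1qa at 1.94 and Ly86 at 1.87. The other 4 disease-associated members were between 0.932 times (Lpl) and 1.40 times (Cd9). By role, the median ratio was 1.74 for the TREM2-TYROBP pair and C1q, 1.41 for the pan-myeloid genes, 1.40 for the disease-associated genes and 1.39 for the transcription factors. The homeostatic genes ranged from 0.793 for Fcrls to 1.39 for Siglech with a median of 1.22. For the disease-associated genes WT replicate 1 had a similar median ratio of 1.37. In both libraries 3 of these 7 were at least 1.5 times the median of the others. The ratio of Ctss to P2ry12 was 5.18 in replicate 2 labelled cKO and 2.45 at the median of all 11.

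**Figure D4:**
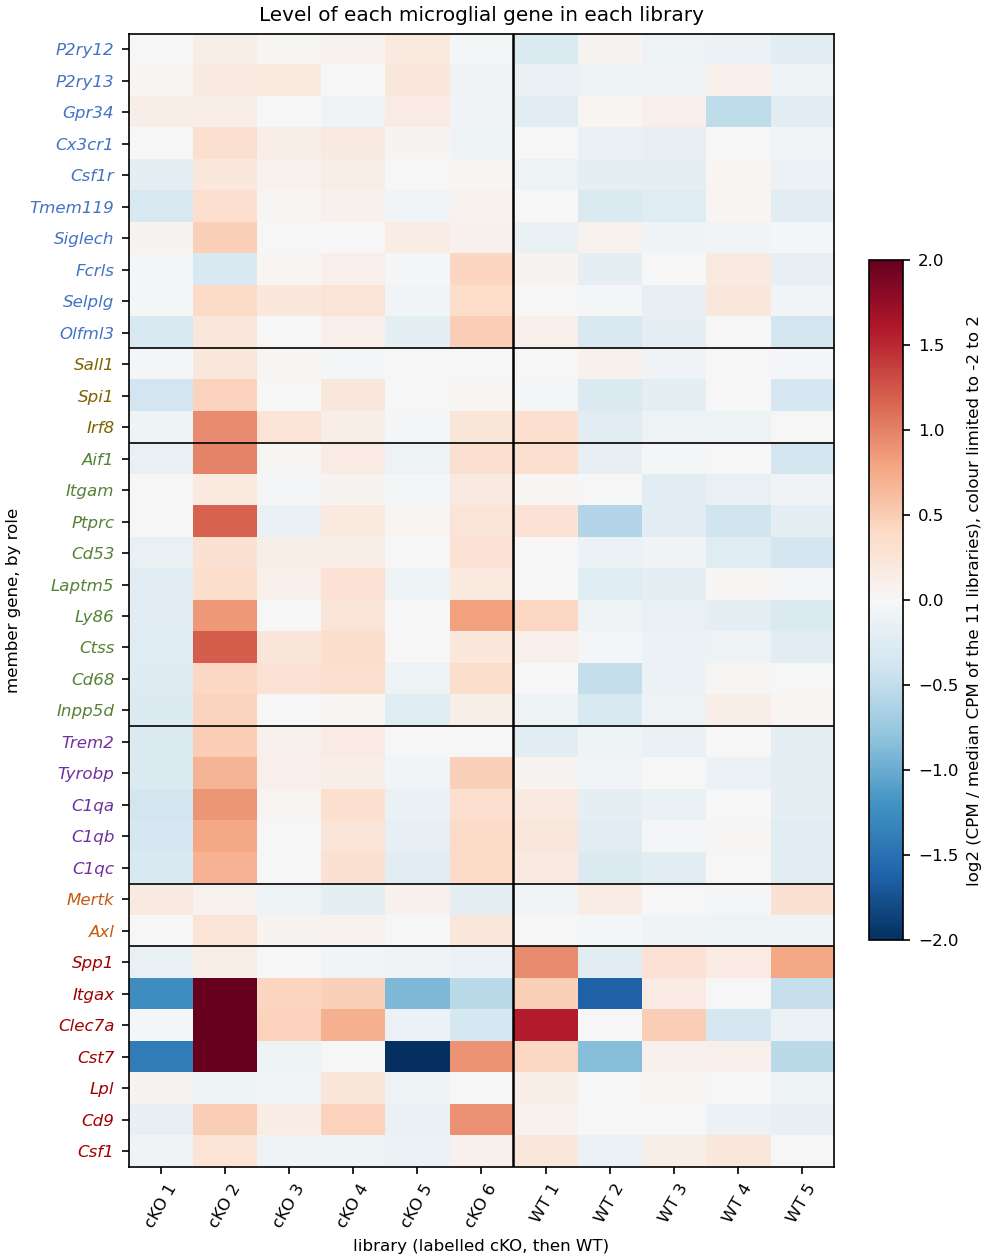
Log2 ratio of each member's CPM to its median over the 11 libraries, with libraries in columns (6 labelled cKO, then 5 WT), genes in rows by role and gene names coloured by role. The column of replicate 2 labelled cKO is mostly red and deepest for Itgax, Clec7a and Cst7, while replicate 1 labelled cKO and WT replicate 2, which each held the lowest value of 9 members, are mostly blue.

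Markers of lymphocytes moved with these genes in the same library. Their summed level over 11 markers was 13.1 CPM in replicate 2 labelled cKO and 2.76 to 6.48 CPM in the others. There 9 of the 11 markers had their highest CPM, against 10.0% of all genes tested. The co-receptor Cd8a had 74 counts against 1 to 18 elsewhere, the cytotoxic granule gene Nkg7 68 against 1 to 10, and the T-cell receptor subunit Cd3e 29 against 0 to 6. Cd8a, Nkg7 and Cd3e were chosen after their values were seen. Cd4 was only just highest, with 41 counts against 4 to 35. The markers not highest there were Gzma, with 2 counts against 0 to 10, and Cd79b, with 17 against 7 to 22. Markers of blood monocytes and neutrophils summed to 4.22 CPM in this library. That was below WT replicate 1 (8.26) and replicate 6 labelled cKO (5.57) and above the rest (0.611 to 2.89). None of them was highest there: Plac8 had 65 counts against 2 to 83 elsewhere, Ccr2 32 against 4 to 41. Ly6c2 had 18 against 0 to 25, and Camp and Retnlg had 0 counts, as in some other libraries. Ptprc and Cd53 are among the members that lymphocytes also express. The part of these cells in the members' values, that of Cst7 included, was not tested.

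Some further disease-associated and complement genes stood high in the same library: 7 of 22 and 6 of 10 were at least 1.5 times the median of the others (3.98% of all genes). This was not particular to it, since in WT replicate 1 the counts were 4 of 22 and 5 of 10 (3.06% of all genes). In replicate 2 labelled cKO Cybb, a subunit of the phagocyte NADPH oxidase, was 5.55 times the median of the others, Cd52 3.99 times, B2m, the light chain of MHC class I, 2.78 times and Lyz2, lysozyme, 2.34 times. Complement C3 was at 10.9 CPM, 8.53 times the median, and C4b at 161 CPM, 2.83 times. Others did not share this: Timp2 was at 0.934 times and the complement gene C2 at 0.834 times the median. Apoe, the apolipoprotein that is the most abundant of these genes, was at 1.06 times the median. These genes were chosen after their values were seen.

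A different pattern marked replicate 6 labelled cKO. It had the highest Cd9, Fcrls and Olfml3, the highest Gfap, the astrocyte filament gene (3362 CPM, against 648.5 to 2354 CPM in the others), and the highest summed level of reactive astrocyte markers, 411 CPM against 135 to 316 CPM. The proliferation genes of replicate 6 summed to 61.3 CPM, against 24.4 to 32.3 CPM in the other 10 libraries. Clec7a was at 0.857 CPM there, the lowest value of all 11 libraries, so that the disease-associated members were not high together. WT replicate 1 had the highest Spp1, the second highest Clec7a (3.24 CPM), and the highest Cxcl10 (9.04 CPM) and Ccl12 (5.11 CPM), chemokines of the interferon and inflammatory response. Gfap, Cxcl10 and Ccl12 were singled out after their values were seen.

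**Figure D5:**
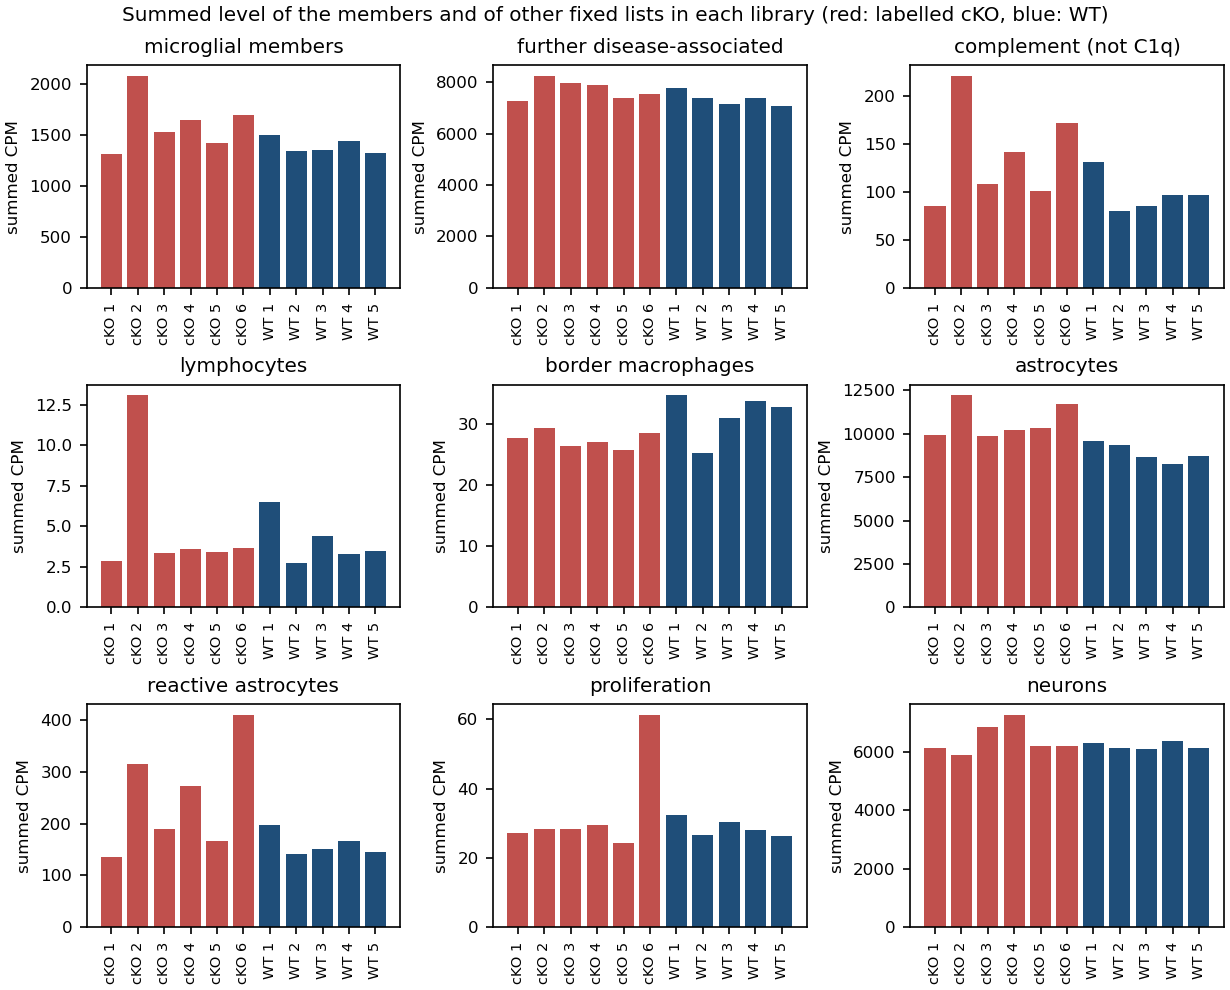
Summed CPM of the members and of 8 other gene lists in each library, as bars from 0 (red labelled cKO, blue WT). Replicate 2 labelled cKO stands highest for the microglial members, further disease-associated genes, complement, lymphocytes and astrocytes, and replicate 6 for reactive astrocytes and proliferation. The astrocyte bars of the 6 libraries labelled cKO all exceed those of the 5 WT libraries.

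Astrocyte markers were higher on average in the libraries labelled cKO, like the homeostatic members, and their summed levels did not overlap between the groups. All 10 had a positive log2 fold change with a median of 0.18 (9 of 10 and 0.15 with library totals as scaling, and 9 of 10 and 0.15 without replicate 2 labelled cKO), and the sum was 9896 to 12212 CPM in the libraries labelled cKO and 8238 to 9597 CPM in WT. The 4 of smallest p were Mlc1 (0.16 ± 0.05 SE), the gap junction gene Gja1 (0.21 ± 0.06), the glutamate transporter Slc1a2 (0.22 ± 0.07) and the water channel Aqp4 (0.26 ± 0.09), with adjusted p from 0.352 to 0.436 in edgeR. Slc1a2 made up 49.2% of the summed level. Its own levels overlapped between the groups, at 4486 to 5680 CPM in the libraries labelled cKO and 4028 to 4902 CPM in WT. Reactive astrocyte genes were higher in 6 of 8 tested, with a median of 0.38. The part of these cells in the values of Axl, Mertk, Cd9, Lpl and Csf1 was not tested. Of 10 neuronal markers 9 were positive with a median of 0.07.

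Markers of the macrophages at the borders of the brain were lower on average in the libraries labelled cKO. Of 10 tested, 9 had a negative log2 fold change and 1 a positive one, with a median of -0.23, and 4 were lower at an unadjusted p under 0.05: Lyve1 (-0.69 ± 0.20 SE), Siglec1 (-0.999 ± 0.416), F13a1 (-0.32 ± 0.13) and Stab1 (-0.14 ± 0.07). None passed the adjusted test, and their summed level, 25.7 to 29.3 CPM in the libraries labelled cKO and 25.3 to 34.7 CPM in WT, was far below that of the members. In the 8 male libraries 5 of the 10 were negative, with a median of -0.04. WT replicate 2 had the lowest sum of all, and the other 4 WT libraries lay above every library labelled cKO.

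Microglial genes outside the members were also slightly higher on average in the libraries labelled cKO. Of 34 further microglial identity genes 28 had a positive log2 fold change (50.0% of all genes), with a median of 0.15, and 11 were higher at an unadjusted p under 0.05 (3.84% of all genes) and none lower. Without replicate 2 labelled cKO 26 were positive with a median of 0.08. Among those of smallest p were Vsir (0.18 ± 0.06 SE), Sparc (0.17 ± 0.06), which astrocytes also express, and Csf3r (0.40 ± 0.15). Of 22 further disease-associated genes tested 19 were positive, with a median of 0.14 (15 and 0.07 without replicate 2 labelled cKO), led by Fabp5 (0.18 ± 0.07 SE), Ctsl (0.16 ± 0.07), Npc2 (0.18 ± 0.09) and Ccl6 (0.29 ± 0.15).

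Ligands and signalling partners of the member receptors had a median log2 fold change close to 0 over all 11 libraries, and a higher one in the male libraries. Of 15 tested 11 had a positive log2 fold change with a median of 0.05, and Pros1, the TAM bridging protein, was the 1 gene higher at an unadjusted p under 0.05 (0.25 ± 0.11 SE). Sirpa (0.10 ± 0.05), Tgfb1 (0.15 ± 0.08) and Itgb2 (0.28 ± 0.15) came next. Of 10 complement genes other than C1q 7 were positive and 3 negative, with a median of 0.05 (4 positive and -0.10 without replicate 2 labelled cKO), from C2 at -0.62 ± 0.24 to C4b at 0.80 ± 0.35 (SE). C3 was at 0.49 ± 0.82 and Cd93 at 0.07 ± 0.12. Of 12 inflammatory cytokines and mediators 7 were positive and 5 negative with a median of 0.05 (5 positive and -0.03 without that library), and none reached an unadjusted p under 0.05. In the 8 male libraries 14 of 17 ligands and partners were positive with a median of 0.14, 9 of 10 complement genes with a median of 0.20, and 11 of 14 cytokines and mediators with a median of 0.18. The 4 cytokines and mediators of smallest p were Il1a (0.41 ± 0.25 SE), Ptgs2 (0.18 ± 0.12), Nfkb1 (-0.09 ± 0.06) and Nfkb2 (0.17 ± 0.13).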

How the data were processed

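Polyadenylated RNA of 11 hippocampi was sequenced with a dUTP-stranded kit (per the labels' protocols). From the submitters' processing notes come bcl2fastq 2.17.1.14 and mm10. Not given in the sources used here: aligner, counter, annotation, use of strand. The authors deposited unnormalized counts per Ensembl gene. Symbols, given for 30566 of 30681 rows, and exon lengths came from GENCODE M21.

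The members and gene lists were chosen with earlier results of these data known. Every member is named; for the 2 of smallest p and the most abundant of each role the WT value of every library and the lowest, median and highest of the 6 libraries labelled cKO are given, and of each other list the 4 genes of smallest p. 1 gene that this rule names is not reported here. Counts of the genes kept by filterByExpr (16587) were tested with edgeR 4.0.16 in R 4.3.3 (quasi-likelihood F test, robust, 2-sided, TMM factors, Benjamini-Hochberg adjustment over all tested genes, threshold 0.05). Levels are CPM computed from the deposited counts. The median SE of a log2 fold change was 0.08. In a test on simulated counts with 6 against 5 libraries, edgeR recovered 46% of genes set to change 1.25-fold, 78% at 1.5-fold, 88% at 2-fold and 96% at 3-fold, with 15 false calls among 16260. No 2 libraries of a group agreed within sampling noise (chi-square per degree of freedom at least 5.70). Same-numbered libraries deviated together in replicates 4 and 5 alone (correlations -0.32 to 0.21), so the numbers were not taken as pairs. Alternatives were other scaling and filters, DESeq2 1.42.0, limma 3.58.1 (voom), a replicate block, a sex term, male libraries and leaving out libraries.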

Additional observations from a re-analysis of the deposited data

Results flagged for a closer look

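A library was set apart where its gap to the nearest of its group was large for the group's range by Dixon's 95% criterion. Each of the 36 members was examined in both groups, 72 tests in all, and chance alone marks about 1 group in 20. It marked 12 cases in 11 members, and 9 of the 12 were replicate 2 labelled cKO.

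In replicate 2 labelled cKO the marked genes were the disease-associated Clec7a at 6.83 CPM (next in the group 1.77 CPM), Cst7 at 3.38 CPM (next 1.143) and Itgax at 2.56 CPM (next 0.873). They were joined by the pan-myeloid genes Ctss at 315 CPM (next 172.5), Aif1 at 24.6 CPM (next 15.5) and Ptprc at 12.2 CPM (next 6.498), by the transcription factors Irf8 at 14.3 CPM (next 8.92) and Sall1 at 34.1 CPM (next 30.03), and by the surface lectin Siglech at 37.3 CPM (next 29.9). The 9 genes span 4 of the 6 roles. The lymphocyte markers of the same library summed to 13.1 CPM.

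In WT replicate 1 Clec7a was at 3.24 CPM (next 1.52) and Ly86 at 31.8 CPM (next 22.9). In WT replicate 4 the ADP receptor P2ry13 was at 21.7 CPM (next 19.1).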

How the results depend on the processing

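No member passed the adjusted threshold under any of 22 alternatives, and 766 of 790 values of single members kept their sign, with 28 members keeping it throughout. Genes called over all genes numbered 0 in edgeR with TMM factors, 1 with library totals, 3 without the filter, 58 in DESeq2, and 0 to 14 when 1 library was left out (14 without WT replicate 5). Members at an unadjusted p under 0.05, in both directions, numbered 11 and became 6 with library totals, 6 in the male libraries, 6 with 3 libraries left out together, and 5 to 20 when 1 library was left out (5 without replicate 2 and 20 without replicate 1 labelled cKO). Members with a positive log2 fold change numbered 28 to 34 throughout. The stricter filter dropped 2 of the 36 members. With a replicate block, though the numbers do not pair the libraries, 31 members were positive with a median of 0.19, no gene was called, and Fcrls turned to -0.029.

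Signs turned as follows, and the cause was not tested. Lpl, near 0, became 0.00134 with RLE scaling, 0.00584 without the filter, 5.98e-05 with the stricter filter, 0.00237 in DESeq2, 0.065 with a sex term, 0.068 in the male libraries and 0.056 with 3 libraries left out. Csf1 became 0.070 with a sex term and 0.0725 in the male libraries. Cst7 became -0.067 in limma-voom and -0.37 with 3 libraries left out, where Inpp5d became -0.063 and Sall1 -0.00256. The median of the TAM receptors became -0.037 with a sex term, -0.034 in the male libraries and -0.00272 with 3 libraries left out, and that of the disease-associated genes -0.030 in limma-voom. When 1 library was left out, Lpl ran from -0.052 to 0.025, Inpp5d from -0.00183 to 0.15, Sall1 from -0.00108 to 0.063, Itgax from -0.034 to 0.85, Cst7 from -0.0875 to 1.05, Clec7a from -0.30 to 0.98, Fcrls from -0.029 to 0.13, and the disease-associated median from -0.0875 to 0.46. Lpl turned positive without replicates 2, 3 or 5 labelled cKO or WT replicate 1, and Fcrls negative without replicate 6 labelled cKO. For the others the negative ends were those without replicate 2 labelled cKO.

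Counting depth limits the members of lowest count, Itgax, Cst7 and Clec7a, which also have the widest intervals.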

Other observations

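Other tissue components were also counted from fixed lists. Of 10 oligodendrocyte and precursor markers 4 had a positive and 6 a negative log2 fold change with a median of -0.01, the 4 of smallest p being Cspg4 (-0.13 ± 0.08 SE), Olig2 (-0.09 ± 0.07), Mag (-0.09 ± 0.11) and Pdgfra (-0.06 ± 0.08). Of 10 endothelial and pericyte markers 6 were positive with a median of 0.01, with Rgs5 at 0.11 ± 0.05 (SE), Pdgfrb at -0.11 ± 0.05, Vtn at -0.11 ± 0.08 and Cldn5 at 0.12 ± 0.10. Markers of the meninges and choroid plexus were negative in 7 of 10 with a median of -0.09, led by Aldh1a2 at -0.93 ± 0.21 (SE), Slc6a13 at -0.62 ± 0.16, Clic6 at -0.41 ± 0.16 and Kl at -0.07 ± 0.05, the lowest adjusted p being 0.346 in edgeR. The 5 red blood cell genes tested were all positive with a median of 0.16 (1 of 5 and -0.05 in the male libraries), led by Alas2 at 0.52 ± 0.16 (SE), with Hba-a1 at 0.18 ± 0.13, Hba-a2 at 0.16 ± 0.13 and Hbb-bt at 0.13 ± 0.14.

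Of 9 hippocampal neuron markers 5 were positive with a median of 0.05, the 4 of smallest p being Neurod6 (0.12 ± 0.06 SE), Calb1 (-0.16 ± 0.14), Prox1 (-0.09 ± 0.09) and Wfs1 (-0.14 ± 0.13). The neuronal genes of smallest p were Nefm (0.21 ± 0.09 SE), Nefl (0.12 ± 0.07), Slc17a7 (0.09 ± 0.06) and Gad2 (0.08 ± 0.06). Of 7 proliferation genes tested 6 were positive with a median of 0.61 (3 of 6 and 0.03 with replicates 2 and 6 labelled cKO and WT replicate 1 left out), among them Top2a at 1.21 ± 0.80 (SE), Cdk1 at 1.23 ± 0.88 and Ccna2 at 0.51 ± 0.38, with Mcm2 at -0.17 ± 0.12. The high values of Top2a, Cdk1 and Ccna2 lay in replicate 6 labelled cKO. The reactive astrocyte gene Serpina3n (0.88 ± 0.36 SE) was high in replicates 6, 2 and 4 labelled cKO. It was at 178, 147 and 136 CPM there, against 48.25 to 75.07 CPM in WT. S100a10 (0.40 ± 0.16) was at 40.95 CPM in replicate 6 and 32.54 CPM in replicate 2, and Osmr (0.36 ± 0.11) at 12.78 and 13.08 CPM. Cp had a log2 fold change of -0.19 ± 0.09. Of the lymphocyte markers 3 passed the filter, Lck at 0.12 ± 0.17 (SE), Cd4 at -0.16 ± 0.53 and Cd79b at -0.36 ± 0.26, and of the monocyte and neutrophil markers S100a9 alone, at -0.41 ± 0.66.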
